A study of Mus musculus with 2 samples.

Results

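The 9 genes described here encode 6 CC chemokines (Ccl2, Ccl3, Ccl4, Ccl6, Ccl7 and Ccl9) and 3 chemokine receptors (Ccr1, Ccr2 and Cx3cr1). They were chosen by name, with earlier results of these data known, and each was measured by the reads that span its annotated introns. Of the 9 genes, 8 had at least 20 such reads over both libraries. Ccr1 reached that only under a wider naming rule, added after the data were seen. The fixed naming rule measured the other 7, among 8775 genes with as many reads out of 12409 named. The cells were adherent macrophages of male C57BL/6JJcl mice, washed from the peritoneum 3 days after an injection of thioglycolate, an irritant broth that draws monocytes and macrophages into the peritoneum, and left to adhere for 24 h. The IL-10 group received interleukin 10, a cytokine that restrains inflammatory gene expression, at 100 ng/ml for 4 h, and the other group was untreated. Each group is 1 library, the age of the mice and the number pooled are not given in the sources used here, and ratios therefore compare these libraries with counting error alone, with no replicate check. Fewer cells of a type and less RNA per cell cannot be told apart in such bulk samples.

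Chemokines are small secreted proteins that bind receptors coupled to G proteins and direct the movement of leukocytes. Ccl2 and Ccl7 attract monocytes through Ccr2. Ccl3 and Ccl4 are inflammatory chemokines that attract monocytes and T cells, and Ccl3 binds Ccr1. Ccl6 and Ccl9 are rodent chemokines that bind Ccr1. Cx3cr1, the fractalkine receptor, is a marker of monocyte subsets and of many tissue macrophages. CC chemokines are named for a pair of adjacent cysteines near the start of the mature protein. The coding sequence around these codons, from the GENCODE M21 transcripts, shows what 5 of the ligands share, with the adjacent cysteine codons in capitals:

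Ccl2: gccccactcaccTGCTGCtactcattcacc

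Ccl7: aatgcatccacaTGCTGCtatgtcaagaaa

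Ccl4: cctcccacttccTGCTGTttctcttacacc

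Ccl6: acttcttcagacTGCTGCttctcttatgcc

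Ccl9: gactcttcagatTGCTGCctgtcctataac

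In Ccl2, Ccl7 and Ccl4 the codons lie at the start of exon 2 of 3, 21 to 24 bases past the first intron. In Ccl6 and Ccl9 they lie in exon 3 of 4, so these genes carry a further intron before them. The reads counted below join the exons on either side of these introns.

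The library insert size was 188 bp with IL-10 and 197 bp without, per the labels. The IL-10 library held 3998954 junction reads and the untreated library 4035991, of which 3933891 (98.4%) and 3967729 (98.3%) lay on introns matched to a gene. The labelled cell type was checked against its markers. All 10 listed macrophage markers were measured, with 31849 and 45047 reads for the lysozyme gene Lyz2 and 14907 and 17303 for the lysosomal gene Cd68 in the IL-10 and untreated libraries, and 0 of them were called 2-fold higher or lower. Of 76 entries in 9 lists of cell type markers, 34 were measured, 1 was called higher (Selp, a marker of resident macrophages) and 0 were called lower.

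Ccl2 was the most abundant of the ligands that bind Ccr2, and its level in the IL-10 library stood clear of that in the untreated library. Ccl2 had 797 reads with IL-10 and 426 without, or 202.6 and 107.4 RPM (reads per 1000000 matched reads). The ratio was 1.89 (95% interval 1.68 to 2.13), under the 2-fold limit set for a call. Among the 991 genes with at least as many reads as Ccl2, 9 (0.908%), itself included, had a ratio as high. A gene was called when it had 20 reads or more in the libraries together, differed by 2-fold or more, and its exact conditional binomial interval left out 1. Of all 8775 genes, 150 (1.71%) were called higher and 137 (1.56%) lower.

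Ccl7, which lies 8.94 kb from Ccl2 on the same strand of chromosome 11, had few reads but was called higher. It had 22 reads with IL-10 and 9 without, a ratio of 2.47 (1.09 to 6.08). Its first intron had 13 and 4 reads (ratio 3.28, 1.01 to 13.8) and its second 9 and 5 (1.82, 0.546 to 6.90). With the first intron alone its reads fell short of 20 and the call ended, and a 99% interval also included 1 (0.874 to 8.15). The ratios of the neighbours were not separated by counting error, since the ratio of Ccl2 divided by that of Ccl7 was 0.766 (0.307 to 1.75). Fibroblasts and mesothelial cells can also make both chemokines. The 10 markers of those cells, of which 9 had a read and Lum had none, summed to 355.4 and 312.5 RPM (ratio 1.14, 1.05 to 1.23). The 6 measured markers had a median log2 ratio of 0.37, and single markers had intervals on either side of 1. Among them Col1a2 had 510 and 418 reads (1.23, 1.08 to 1.40) and Col1a1 364 and 395 (0.929, 0.804 to 1.07). The part of these cells in the values of Ccl2 and Ccl7 was not tested.

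Ccr2, the receptor for Ccl2 and Ccl7, was higher in the IL-10 library and was called. It had 65 reads with IL-10 and 25 without, a ratio of 2.62 (1.63 to 4.34). Both of its introns with reads lay on the same side, at 2.32 (23 and 10 reads, 1.06 to 5.46) and 2.82 (42 and 15 reads, 1.53 to 5.48). Of 6357 genes with at least as many reads, 18 (0.283%) had a ratio as high. Ccr2 is abundant on inflammatory monocytes, so their markers are given beside it. The 7 monocyte markers, all with a read and 4 with at least 20, summed to 314.7 and 290.8 RPM (1.08, 0.998 to 1.17). Within that list Ly6c2 had 8 and 10 reads and Plac8 4 and 3, while F10 (810 and 744 reads, ratio 1.10) and Chil3 (375 and 331, 1.14) held most of the sum. Lower with IL-10 were Ace (30 and 45 reads, 0.672, 0.409 to 1.09), Treml4 (9 and 13) and Cd177 (2 and 8). The 4 measured markers had a median log2 ratio of -0.18. T cells and dendritic cells can carry Ccr2 as well. The 8 markers of T and NK cells summed to 14 reads with IL-10 and 2 without, with Cd3d, Cd8a, Ncr1 and Klrb1c at 0, and the dendritic cell marker Cd209a had 11 and 1 while Flt3 and Zbtb46 were at 0. Their part in the value of Ccr2 was not tested.

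**Figure D1:**
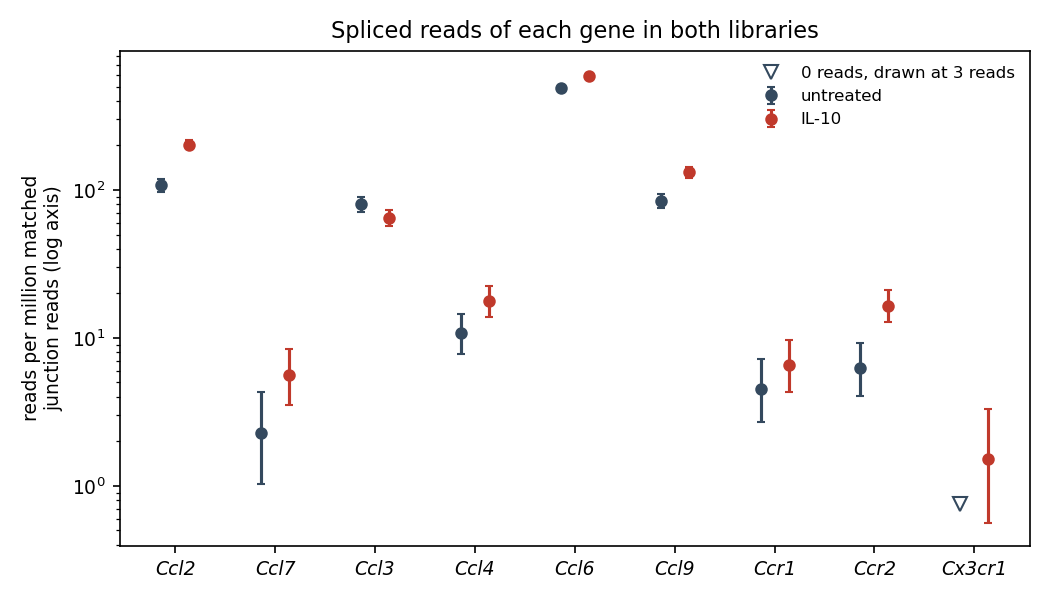
Level of each gene in the untreated (dark) and IL-10 (red) libraries, in RPM on a log axis, with exact 95% Poisson intervals. The open triangle marks 0 reads, drawn at the level of 3 reads. Ccl6 lies highest in both libraries, and Ccl3 alone is lower with IL-10. Intervals narrow as reads grow, and their overlap between the libraries was not counted over all genes.

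Ccl3 and Ccl4, inflammatory chemokines 13.5 kb apart on chromosome 11, lay on opposite sides of 1. Ccl3 had 255 reads with IL-10 and 317 without, and was 1.23-fold lower (1.04 to 1.46). Ccl4 had 70 reads with IL-10 and 43 without, a ratio of 1.64 (1.11 to 2.46). Neither was called. The ratio of Ccl4 divided by that of Ccl3 was 2.02 (1.31 to 3.14), so the neighbours differed from each other beyond counting error in this pair of libraries. The first intron of Ccl4 stood at 1.85 (57 and 31 reads, 1.18 to 2.97) and its second at 1.09 (13 and 12, 0.460 to 2.62). Both introns of Ccl3 lay below 1, at 0.799 (214 and 270) and 0.880 (41 and 47). A 60-base window around each joint of Ccl3 and Ccl4 differed by at least 12 edits from the transcripts of every other annotated gene, the nearest being each other at the second joint.

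Ccl6 was the most abundant of the 9 genes in both libraries. It had 2325 reads with IL-10 and 1937 without, or 591.0 and 488.2 RPM, and its ratio of 1.21 (1.14 to 1.29) was close to those of many abundant genes, since 26 of 244 genes with at least as many reads (10.7%) had a ratio as high. Ccl9, its neighbour, had 517 and 335 reads and a ratio of 1.56 (1.35 to 1.79). Of 1472 genes with at least as many reads as Ccl9, 28 (1.90%) had a ratio as high. The ratio of Ccl9 divided by that of Ccl6 was 1.29 (1.10 to 1.499). Neither gene was called. The joints of their last introns differ by 7 edits over 60 bases, the fewest of any ligand, so reads there could be split between them. Away from that joint, Ccl9 stood at 1.80 (150 and 84 reads, 1.37 to 2.38) on its first intron and 1.32 (166 and 127, 1.04 to 1.67) on the next, against 1.63 (200 and 124, 1.29 to 2.05) at the shared-sequence joint. The introns of Ccl6, in the same order, stood at 1.67 (1.43 to 1.96), 1.08 (0.993 to 1.16) and 1.30 (1.15 to 1.46).

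Ccr1, the receptor for Ccl3, Ccl6 and Ccl9, has a lone intron, and its reads were 26 with IL-10 and 18 without, a ratio of 1.46 (0.769 to 2.82) with an interval that includes 1. Its junction, at chr9:123879392-123883127, has the exact length of the annotated intron (3736 bases) but missed the naming rule by an offset of 94 bases from that of Ccr2, so a wider rule was added after the data were seen. The ratio of Ccr2 divided by that of Ccr1 was 1.79 (0.782 to 4.09), so the receptors were not separated at this depth. Cx3cr1 had 6 reads with IL-10 and 0 without, on 2 introns with 5 and 1 reads, and with fewer than 20 reads it was not measured. Taking 3 reads as the most that 0 allows, the IL-10 library was at least 2.02-fold higher, with the error on the 6 reads left out. With that error the exact interval began at 1.19, and at 0.924 for the intron with 5 reads. Of 2 annotated joints of Cx3cr1, 1 differed from other genes by at least 17 edits over 60 bases. The other differed by only 4 edits over 42 bases, from Nxnl1. These joints were not matched to the introns with reads.

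Over the 9 genes, 7 of the 8 measured had a ratio above 1 and 1 below, 6 had an interval above 1, 1 an interval below 1 and 1 an interval that included 1. Ccr1, measured under the wider naming rule, was the gene whose interval included 1. Over all measured genes 4341 of 8775 (49.5%) had a ratio above 1, 12.6% had an interval above 1 and 13.1% an interval below 1. The interval shares are not matched for reads, and intervals narrow as reads grow. The calls were 2 higher (Ccl7 and Ccr2) and 0 lower, against 1.71% higher and 1.56% lower over all 8775 genes. The median log2 ratio was 0.71 over the 7 genes measured under the fixed naming rule, against 0.00 (-0.00378 unrounded) over all genes. Because the 9 genes were chosen with earlier results of these data known, the contrast with all genes is descriptive only.

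**Figure D2:**
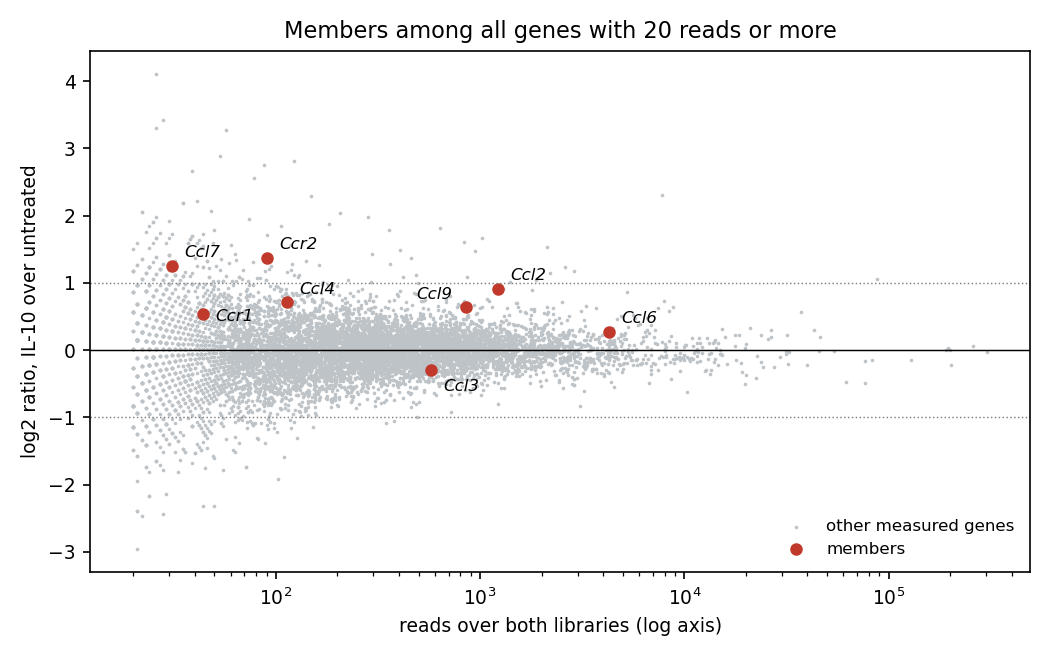
Log2 ratio of IL-10 over untreated against the reads over both libraries (log axis) for 8775 genes with at least 20 reads, with the members in red. Dotted lines mark 2-fold. Fewer than 2% of the genes with at least as many reads lie as high as Ccl2, Ccl4, Ccl7, Ccl9 or Ccr2, and Ccl3 lies below 0. Ccr1, drawn under the wider naming rule, is not among the 8775.

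The introns of each gene lay on the same side as the gene as a whole, but not at the same distance from 1. Of 18 introns with at least 5 reads, 10 had an interval above 1 and 1, the first intron of Ccl3 (0.799, 0.665 to 0.960), an interval below 1. Over all 78268 matched introns with at least 5 reads these shares were 5.75% and 5.13%, and introns of a gene share its transcripts. The shares are not matched for reads, and intervals narrow as reads grow. In Ccl2 the first intron (chr11:81849240-81849984) carried 771 and 403 reads and stood at 1.93 (1.71 to 2.18). The second intron (chr11:81850103-81850427) carried 26 and 23 reads and stood at 1.14 (0.625 to 2.09). Reads on the first intron outnumbered those on the second by 29.7 to 1 with IL-10 and 17.5 to 1 without, so the value of Ccl2 rests almost wholly on its first intron. The ratio of the first intron divided by that of the second was 1.69 (0.909 to 3.13). The 15 coding bases on each side of these joints, with the downstream exon in capitals, show where those reads were placed:

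Ccl2 first joint: tgttggctcagccagATGCAGTTAACGCCC

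Ccl2 second joint: caaagaagctgtagtTTTTGTCACCAAGCT

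Over 60 bases these joints differed by at least 17 and 18 edits from the transcripts of any other gene. The annotation lists a Ccl2 transcript that retains the second intron, and reads within introns were not measured here. In Ccl3 (5.22 to 1 and 5.74 to 1) and Ccl4 (4.38 to 1 and 2.58 to 1) the first intron likewise carried more reads than the second in both libraries.

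Ccl6 had the best counted case of unequal introns. Its first intron (chr11:83403307-83406367) had 435 reads with IL-10 and 262 without, a ratio of 1.67 (1.43 to 1.96). The second intron (chr11:83402917-83403258) had 1277 and 1198, a ratio of 1.08 (0.993 to 1.16), and the third (chr11:83402442-83402804) had 613 and 477, a ratio of 1.30 (1.15 to 1.46). The first intron's ratio divided by that of the second was 1.56 (1.31 to 1.86), beyond counting error. The second intron lies between exons of 48 and 112 bases, and the first joins an exon of 222 bases to the one of 48 bases (GENCODE M21). The part of the insert sizes in this difference was not tested. In 5 of the 6 ligands the first intron had the higher ratio of the first and last, and in Ccl3 the lower, but the interval of the first ratio divided by the last left out 1 in Ccl6 alone (1.29, 1.06 to 1.58). Over all genes the split was near even. Among 5779 genes with at least 20 reads on each of their first and last measured introns, the first intron had the higher ratio in 2817 (48.7%), and the median log2 difference was -0.01. That minimum of 20 was not applied to the ligands, and Ccl7 fell short of it (13 and 4 reads on the first intron, 9 and 5 on the last).

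**Figure D3:**
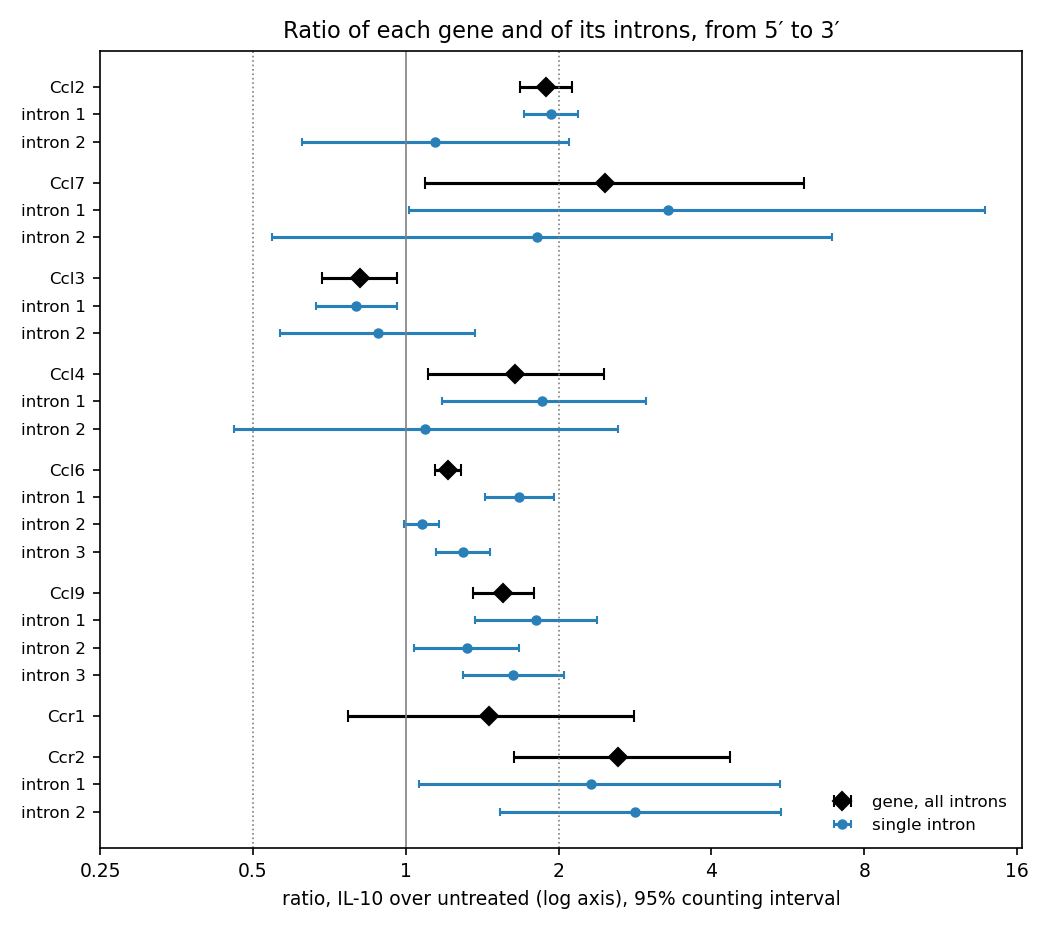
Ratio of IL-10 over untreated (log axis) with 95% counting intervals, for each gene over all introns (black diamonds) and for each intron with at least 5 reads from 5′ to 3′ (blue circles); dotted lines mark 2-fold. The first intron lies to the right of the last in every ligand but Ccl3, and Ccl6 shows the narrowest intervals, with its first intron at 1.67 and its second at 1.08. Cx3cr1 is left out because it had 0 untreated reads.

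Levels can be set beside each other between genes as RPM per intron, which does not grow with transcript length. On this scale, over introns with at least 5 reads, the IL-10 library gave 197.0 for Ccl6, 101.3 for Ccl2, 43.7 for Ccl9, 32.4 for Ccl3, 8.90 for Ccl4, 8.26 for Ccr2, 6.61 for Ccr1, 2.80 for Ccl7 and 1.27 for Cx3cr1. In the untreated library the values were 162.7 for Ccl6, 53.7 for Ccl2, 39.9 for Ccl3, 28.1 for Ccl9, 5.42 for Ccl4, 4.54 for Ccr1, 3.15 for Ccr2, 1.13 for Ccl7 and 0 for Cx3cr1. Ccl9 and Ccl3 changed places in this order, as did Ccr2 and Ccr1. Since introns of the same gene differed up to 29.7-fold, neighbours in the order are not separated by their level.

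The 9 genes lie in 4 stretches of the genome. Ccl2 and Ccl7 share 11.2 kb of chromosome 11 on the plus strand. Ccl9, Ccl6, Ccl3 and Ccl4 share 88.8 kb further along that chromosome, the first 3 on the minus strand. Ccr1 and Ccr2 lie on chromosome 9, near chr9:123879392 and chr9:124016947, and Cx3cr1 lies further away on that chromosome.

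For the upstream sequence, 6 of the 9 genes matched an entry in the RefSeq promoter table of build GRCm38.p6 (Ccl3, Ccl6, Ccl9, Ccr1, Ccr2 and Cx3cr1), and Ccl2, Ccl4 and Ccl7 did not. The motif TTCNNNGAA, bound by Stat proteins including the IL-10 effector Stat3, was searched on both strands of the 250 bases before the start, and 0 of the 6 held it, against 7.04% of 32536 such windows in the table. Ccl9 and Ccl6 are shown because they are neighbouring relatives with different ratios over all introns (1.56 and 1.21). On their first introns the intervals overlapped, at 1.80 (1.37 to 2.38) and 1.67 (1.43 to 1.96). The letters TATAAA (capitals, on either strand, overlapping matches joined) were present in Ccl9 and in 12.3% of windows, and were not found in Ccl6. These matches describe the letters only.

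Ccl9 promoter, chr11:83578637-83578886, minus strand: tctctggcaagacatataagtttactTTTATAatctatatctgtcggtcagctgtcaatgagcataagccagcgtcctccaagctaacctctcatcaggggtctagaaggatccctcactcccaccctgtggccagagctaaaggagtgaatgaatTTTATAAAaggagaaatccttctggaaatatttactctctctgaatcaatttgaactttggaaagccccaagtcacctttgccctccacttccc

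Ccl6 promoter, chr11:83593088-83593337, minus strand: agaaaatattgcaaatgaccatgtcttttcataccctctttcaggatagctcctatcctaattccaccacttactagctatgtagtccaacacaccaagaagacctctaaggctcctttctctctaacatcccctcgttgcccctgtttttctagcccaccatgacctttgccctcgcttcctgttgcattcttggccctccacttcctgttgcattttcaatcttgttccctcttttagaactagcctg

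The wider chemokine system gave few further calls. Of 18 CC ligands, 8 were measured and 1 (Ccl7) was called higher, with a median log2 ratio of 0.46. The measured ligands outside the 9 genes were Ccl5, a T cell and monocyte attractant, with 25 and 38 reads (0.664, 0.384 to 1.13), and Ccl24, an eosinophil attractant, with 11 and 10 (1.11, 0.428 to 2.91), while Ccl1, Ccl11, Ccl17, Ccl19, Ccl20 and Ccl28 had no read on an intron matched to them. Of 16 other chemokine ligands, 4 were measured and 0 called, with a median of -0.40. These were Cxcl16, the membrane-bound ligand of Cxcr6 (826 and 643 reads, 1.30, 1.17 to 1.44), Pf4 (430 and 524, 0.828, 0.727 to 0.942), Cxcl14 (70 and 105, 0.672, 0.490 to 0.919) and the B cell attractant Cxcl13 (22 and 32, 0.693, 0.384 to 1.23).

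Of 17 chemokine receptors, 2 were measured under the fixed naming rule, and Ccr2 was called higher. The other was Cxcr4, the receptor of Cxcl12, with 48 and 35 reads (1.38, 0.876 to 2.20). The median log2 ratio of the receptors was 0.92, or 0.53 with Ccr1 included. Among 5 atypical receptors, which bind chemokines without signalling through G proteins, Ccrl2 alone was measured, with 162 reads with IL-10 and 326 without. It was 1.995-fold lower (1.65 to 2.42), just short of the 2-fold limit. Scaling by the median-of-ratios size factor (ratio 0.497) or counting its most read intron only (0.466) brought it past that limit. Of 2528 genes with at least as many reads as Ccrl2, none but Ccrl2 itself had a ratio as low.

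Among 31 genes of receptor signalling and desensitisation, 29 were measured, 0 were called higher and 1 lower, with a median log2 ratio of -0.12. The gene called lower was Grk5, a kinase that phosphorylates activated receptors, with 30 and 71 reads (2.35-fold lower, 1.51 to 3.73). With its most read intron only, its ratio was 0.504 and the call ended. Its relative Grk6 had 132 and 85 reads (1.57, 1.18 to 2.08). The exchange factor gene Vav1 had 2239 and 1457 reads (1.55, 1.45 to 1.66), and the receptor genes C5ar1 and Fpr2, which sense complement and formyl peptides, had 69 and 37 (1.88, 1.24 to 2.89) and 26 and 15 (1.75, 0.892 to 3.55). Intervals lay above 1 for 7 genes of this list and below 1 for 7, against 12.6% and 13.1% of all measured genes, not matched for reads. Over all 87 genes of the 5 lists, 44 were measured, and the median log2 ratio was -0.05. Of the 44, 2 were called higher and 1 lower, against 1.71% and 1.56% of all measured genes.

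Of the other marker lists, that of T and NK cells differed by over 2-fold. Neutrophil markers, with S100a9, Retnlg, Ly6g, Cxcr2, Mpo, Elane and Ngp at 0, summed to 144.4 and 128.5 RPM (1.12, 0.995 to 1.27), led by Csf3r (311 and 267 reads) and Mmp8 (231 and 221). Eosinophil and mast cell markers summed to 29.5 and 19.9 (1.48, 1.10 to 1.997), led by Siglecf (86 and 48 reads), with Tpsb2 at 10 and 11 and Epx and Prg2 at 0. B cell markers, led by Cd22 (450 and 497) and Ighm (34 and 42), had a ratio of 0.904 (0.798 to 1.02), and dendritic cell markers of 1.09 (1.06 to 1.13), nearly all from Itgax (7270 and 6711), which macrophages also express. Markers of resident peritoneal macrophages had a ratio of 0.904 (0.731 to 1.12), and their median log2 ratio was 0.07. Among them Naip1 had 50 and 76 reads, Ltbp1 28 and 45 and Selp 29 and 6 (4.87, 1.99 to 14.4). On its most read intron alone the ratio of Ltbp1 turned to 1.41, as did those of Cd22 (1.03) and Ighm (1.01) to just above 1. Macrophage markers summed to a ratio of 0.852 (0.843 to 0.860), led by Lyz2 (31849 and 45047 reads). Single macrophage markers had intervals on either side of 1, and their median log2 ratio was 0.09. The sum of T and NK cell markers, at 14 against 2 reads, had a ratio of 7.06 (1.62 to 64.0). The part of these cells in the chemokine values was not tested.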

How the data were processed

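TopHat and Cufflinks, with no version, and the mm9 build are named in the submitters' processing notes. The deposited values are, per the file headers, TopHat junctions with a raw count of reads across each. Junctions of the 2 libraries (131057 in all) were named from GENCODE M21, which is on a later build, by chromosome, strand and exact intron length, where at least 2 introns of a gene shared an offset of up to 20 Mb, or where a lone junction had the offset of the nearest matched gene. This named 107965 junctions (82.4%) and 12409 genes. A junction within 1000 bases of that offset was also accepted as an added rule, which named 35 more, Ccr1 among them. Coordinates of junctions are mm9. Promoter coordinates are GRCm38.p6.

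A gene's value was the sum over its introns, introns shared with other models included, divided by the sum over all matched junctions. Ratios carried exact conditional binomial (Clopper-Pearson) 95% intervals, 0.5 reads were added before log2 ratios were taken, and 0 was set to 3 reads for a lower bound. Intervals and floors cover counting error only, and reads without molecular identifiers are not independent molecules. A read that crosses more than 1 intron of a gene enters its sum at each, so intervals over several introns can be too narrow. No test was run, since each group is 1 library. A total of 13 alternatives were listed and 1 was added after the data were seen. Named genes were the 9 members, the called genes of 5 chemokine system lists with up to 4 more measured genes of each by absolute log2 ratio, and the 2 most read genes of each marker list. Genes at or near 0 and Selp were named after their values were seen. Some items, including genes of these lists, are not reported here and were left out of the lists. Members and lists were chosen with earlier results of these data known. The procedure was tested on simulated data. Groups come from sample titles, because the protocol text of the untreated sample repeats the treatment. Python 3.11.15, numpy 2.4.6, scipy 1.17.1, pandas 2.3.3, matplotlib 3.10.9, R 4.3.3, edgeR 4.0.16 and DESeq2 1.42.0 were used, the last pair for scaling factors only.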

Additional observations from a re-analysis of the deposited data

Results flagged for a closer look

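In these loci 6 junctions match no annotated intron and had more than 3 reads in a library. They were taken up because they lie outside the annotated introns, and none enters the sums over introns.

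Within the first intron of Ccl3, on the opposite strand, a junction at chr11:83462214-83462396 had 39 reads with IL-10 and 51 without (90 in all, ratio 0.771, 95% interval 0.495 to 1.19). A second on that strand, at chr11:83462492-83462622, had 8 and 5 (13 in all, ratio 1.61, 0.465 to 6.27). The longest stretches aligned on either side of the first were 79 and 80 bases. Its ratio was close to that of Ccl3 itself, 0.811, and the difference was not tested.

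In Ccr2, a junction at chr9:124018195-124018693 shares the end of the first intron but starts inside that intron, and spans 499 bases. It had 12 reads with IL-10 and 3 without (15 in all, ratio 4.03, 1.09 to 22.3). It took 34.3% (19.1 to 52.2, exact binomial) of the reads at that end with IL-10 and 23.1% (5.04 to 53.8) without, which was not separated at this depth. With every junction in the span counted, Ccr2 had 78 and 29 reads and a ratio of 2.71 (1.75 to 4.31).

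A junction at chr11:83388998-83402804 joins exon 3 of Ccl6 to the last exon of Ccl9, with 11 and 7 reads (18 in all). At most 19 bases were aligned on the Ccl9 side, and 17 of the first 19 bases of the last exons of Ccl6 and Ccl9 are identical. The joint as annotated and as placed reads as follows, with the last exon in capitals:

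Ccl6 exon 3 to Ccl6 exon 4: caagccgggcatcatCTTTATCAGCAGGAG

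Ccl6 exon 3 to Ccl9 exon 4: caagccgggcatcatCTTTATCAGCAAGAG

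Its share of the reads at that Ccl6 donor was 1.76% (0.882 to 3.13) with IL-10 and 1.45% (0.583 to 2.96) without. Whether these reads come from a joined transcript or from Ccl6 was not tested.

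In Ccl6, a junction at chr11:83402832-83403258 ends inside exon 3 and leaves out its first 85 bases, which is not a multiple of 3. It had 19 and 13 reads (32 in all), or 1.47% (0.885 to 2.28) and 1.07% (0.573 to 1.83) of the reads at that donor. A junction at chr11:83403307-83418180 joins exon 2 of Ccl6 to a start outside the annotated gene, with 3 reads with IL-10 and 7 without (10 in all, ratio 0.432, 0.0721 to 1.89).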

How the results depend on the processing

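Of 36 named genes with ratios run under up to 14 alternatives, 3 markers changed their side of 1, each with the most read intron alone (Ltbp1 1.41, Cd22 1.03, Ighm 1.01). Cx3cr1, with 0 untreated reads, had no ratio to rerun, and single introns were rerun with all junction reads as the scale only, where none changed side. Members called higher, 2 as reported, numbered 1 when the most read intron alone was counted and with a 99% interval, 0 with at least 100 reads and with a 3-fold limit, 5 with a 1.5-fold limit, which added Ccl2, Ccl4 and Ccl9, and 3 with no minimum of reads, which added Cx3cr1. Over all genes, the 150 higher became 221 with no minimum, 39 with at least 100 reads, 368 at 1.5-fold and 56 at 3-fold. The 137 lower became 207 with no minimum, 10 with at least 100 reads, 360 at 1.5-fold, 32 at 3-fold and 85 with a 99% interval. In the 5 chemokine lists, the 2 called higher became 1 with the most read intron alone and with a 99% interval, 4 with no minimum, 0 with at least 100 reads and at 3-fold, and 8 at 1.5-fold. The 1 called lower became 2 with the median-of-ratios factor, with every junction in the gene span and at 1.5-fold, and 0 at 3-fold. Their median log2 ratio ranged from -0.09 to 0.03. Stricter or looser limits change these counts by construction, and for the other settings the cause was not tested. The other scalings multiplied each ratio by 1.005 (TMM), 0.991 (median of ratios) and 1.001 (all junction reads). No paired analysis was possible because each group is 1 library. Depth limits Ccl7, Ccr1 and Cx3cr1 most, where 3 reads correspond to 0.763 and 0.756 RPM.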
